A study of Mus musculus with 72 samples.

Results

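Acute phase proteins are plasma proteins that the liver makes in altered amounts during infection, injury or inflammation. The genes described here are 10 of the positive kind, whose products increase: Saa1, Saa2, Saa3, Orm1, Orm2, Lcn2, Hp, Hpx, Itih4 and Apcs. They were taken by name, as the rows of the deposited count table whose Ensembl identifiers carry these symbols in GENCODE mouse release M21. They make up 10 of the 51912 rows of the table, and 10 of the 12712 genes with enough counts to be tested. The counts came from 72 liver libraries of male wild-type C57BL/6J mice, which entered the study at 43 to 49 days of age and lived under 12 h of light and 12 h of darkness. The paradigms were arrhythmic feeding in mice labelled as not fully adapted to it (called incompletely adapted arrhythmic below), arrhythmic feeding, night-restricted feeding and ad libitum feeding. Each paradigm had 3 libraries at each of 6 zeitgeber times (ZT, hours after lights on), every 4 h between ZT02 and ZT22. Whether the 3 libraries of a time stand for 3 mice is not in the labels, and a p-value here covers only how far these libraries scatter, which may be technical.

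In the acute phase response, cytokines such as interleukin 6 and interleukin 1 reach the hepatocyte and act through STAT3, C/EBP factors and NF-kB on the genes of secreted proteins. Serum amyloid A proteins, lipid-binding proteins carried on high density lipoprotein, can increase more than almost any other plasma protein, whereas haptoglobin, hemopexin and the orosomucoids change within a narrower range. Serum amyloid P component, the product of Apcs, is the major acute phase pentraxin of the mouse.

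The genes were placed on GRCm38 with the GENCODE annotation, identifiers are written as in the count table, and all 10 are protein-coding with no other annotated gene overlapping them. The serum amyloid A genes lie together on chromosome 7, with Saa1 (ENSMUSG00000074115.5) at chr7:46740497-46742980 on the minus strand, Saa2 (ENSMUSG00000057465.5) at chr7:46751790-46754313 on the plus strand and Saa3 (ENSMUSG00000040026.8) at chr7:46711998-46715700 on the minus strand. The orosomucoid genes Orm1 (ENSMUSG00000039196.2, chr4:63344560-63348163) and Orm2 (ENSMUSG00000061540.3, chr4:63362449-63365878) are neighbours on the plus strand of chromosome 4. Lcn2 (ENSMUSG00000026822.14) is at chr2:32384633-32388252, Hp (ENSMUSG00000031722.10) at chr8:109575128-109579172, Hpx (ENSMUSG00000030895.9) at chr7:105591613-105600137 and Apcs (ENSMUSG00000026542.6) at chr1:172893961-172895041, each on the minus strand. Itih4 (ENSMUSG00000021922.15) is at chr14:30886476-30902353 on the plus strand. The libraries read the 3′ ends of transcripts, and some of these ends are shared between relatives. Of the 451 windows of 50 bases in the last 500 bases of the Saa1 transcript, 29.7% also occur in a Saa2 transcript, and 30.4% of those of Saa2 occur in Saa1. Orm1 and Orm2 each share 32.6% of their windows with the other. Saa3 shares 12.4% with 231 other genes, and the remaining 5 genes share none. How such reads were counted is not given in the sources used here, so values within the Saa1 and Saa2 pair, and within the Orm1 and Orm2 pair, are uncertain to that extent.

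Promoters are shown for the serum amyloid genes and Lcn2, because Saa1, Saa2 and Lcn2 moved together in the libraries described next and Saa3 did not. Each runs from 250 bases before to 50 bases after the start site, 5′ to 3′ on the gene's strand, as given by RefSeq on GRCm38.p6: Saa1 at chr7:46742931-46743230 (minus strand), Saa2 at chr7:46751583-46751882 (plus strand), Lcn2 at chr2:32387690-32387989 (minus strand) and Saa3 at chr7:46715627-46715926 (minus strand). Capitals mark the match to the C/EBP motif TTGCNNAA, which in Saa3 is on the opposite strand.
Saa1: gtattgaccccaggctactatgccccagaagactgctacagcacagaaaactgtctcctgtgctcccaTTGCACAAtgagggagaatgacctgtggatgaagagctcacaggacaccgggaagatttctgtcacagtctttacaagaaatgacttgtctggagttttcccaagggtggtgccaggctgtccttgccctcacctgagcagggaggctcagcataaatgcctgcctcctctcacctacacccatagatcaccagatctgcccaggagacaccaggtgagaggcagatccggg
Saa2: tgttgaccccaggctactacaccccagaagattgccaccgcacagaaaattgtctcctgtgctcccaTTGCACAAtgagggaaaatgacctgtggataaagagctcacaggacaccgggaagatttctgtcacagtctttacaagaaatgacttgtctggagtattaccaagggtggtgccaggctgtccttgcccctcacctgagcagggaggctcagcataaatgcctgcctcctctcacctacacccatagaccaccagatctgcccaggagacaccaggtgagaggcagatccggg
Lcn2: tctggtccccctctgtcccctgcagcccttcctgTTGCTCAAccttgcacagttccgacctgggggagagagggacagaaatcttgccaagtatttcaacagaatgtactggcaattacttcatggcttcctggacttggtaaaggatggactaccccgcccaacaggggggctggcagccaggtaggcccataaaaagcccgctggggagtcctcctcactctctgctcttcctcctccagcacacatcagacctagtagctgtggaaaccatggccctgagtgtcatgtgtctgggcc
Saa3: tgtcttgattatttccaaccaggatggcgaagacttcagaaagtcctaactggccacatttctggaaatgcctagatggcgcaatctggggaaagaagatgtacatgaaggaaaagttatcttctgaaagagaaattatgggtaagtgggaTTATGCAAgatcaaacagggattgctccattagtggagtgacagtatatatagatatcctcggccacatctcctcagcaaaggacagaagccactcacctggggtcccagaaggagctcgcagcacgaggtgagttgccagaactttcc
The Saa1 and Saa2 promoters were 95.3% identical over 301 aligned positions, and Saa1 and Saa3 were 50.9% identical. Promoters of 8 of the 10 genes were found in the RefSeq table. The C/EBP motif occurred in those of Saa1, Saa2, Saa3, Orm2, Lcn2 and Hpx, against 10.8% of the 32851 mouse promoters in the table. The STAT motif TTCNNNGAA, read the same on both strands, occurred in those of Itih4 and Apcs, against 8.30% of all promoters. The NF-kB consensus was in none of the 8 windows and in 8.46% of all promoters. Both strands were searched, and a match is a string of letters, not a shown binding site.

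Library totals ran between 4342026 and 12286021 counts, with medians of 6848480 in incompletely adapted arrhythmic, 6817454.5 in arrhythmic, 6453747 in night-restricted and 8375853 in ad libitum libraries. Levels below are CPM, the counts scaled to a library total of 1000000. All 6 hepatocyte markers were present, with summed levels between 19800 and 35200 CPM across the 72 libraries.

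In 3 libraries, all of them replicate 1 and all from the dark phase, Saa1, Saa2 and Lcn2 were far above the rest. These libraries were picked for their Saa1 and Saa2 values, so what follows is a description without a test. Saa1 had 501 CPM in the incompletely adapted arrhythmic ZT18 replicate 1 library, against 57.8 and 101 CPM in the other 2 libraries of that time. At ZT22 of the same paradigm Saa1 had 214 CPM in replicate 1, against 38.6 and 74.4 CPM. In the ad libitum ZT22 replicate 1 library it had 741 CPM, against 86.2 and 38.8 CPM. The highest Saa1 level outside these libraries was 140 CPM. Saa2, its close paralog, had 441, 147 and 299 CPM in the same libraries and at most 82.0 CPM elsewhere. Lcn2, which encodes the siderophore-binding lipocalin 2, is hardly expressed in these livers, with a median of 5.5 to 6.5 counts per library in the 4 paradigms. It had 4.47 CPM (29 counts) in the incompletely adapted arrhythmic ZT18 library, 10.1 CPM (79 counts) in the ZT22 library of that paradigm and 21.9 CPM (203 counts) in the ad libitum ZT22 library, and at most 2.43 CPM elsewhere. Saa3, the serum amyloid of macrophages and adipocytes in the mouse, was not raised: it stood at 0.928, 0.990 and 0.971 times the mean of the other 2 libraries of its time.

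The 3 libraries differed in how many of the other acute phase genes went with serum amyloid. In the ad libitum ZT22 library 9 of the 10 genes were above both other libraries of their time, as were 34.3% of all genes tested, and 8 of 10 were the highest of the paradigm's 18 libraries, as were 5.48% of all genes. Hp, the haemoglobin-binding haptoglobin, had 8436 CPM there against 2582 and 2909 CPM, and Hpx, the haem-binding hemopexin, had 2973 CPM against 1201 and 1046 CPM. Orm2 had 426 CPM against 162 and 190 CPM. In the incompletely adapted arrhythmic ZT18 library 7 of 10 were above both others (34.7% of all genes) and 4 were the highest of 18 (2.91% of all genes). In that paradigm's ZT22 library 6 of 10 were above both others (26% of all genes) and 3 were the highest of 18 (4.27% of all genes). Apcs had its highest level of all 72 libraries there, 96.8 CPM, against 44.2 and 44.3 CPM in the other 2. Hp had 3474 CPM in the ZT18 library of that paradigm, against 3622 and 2589 CPM, inside the range of its neighbours.

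**Figure D1:**
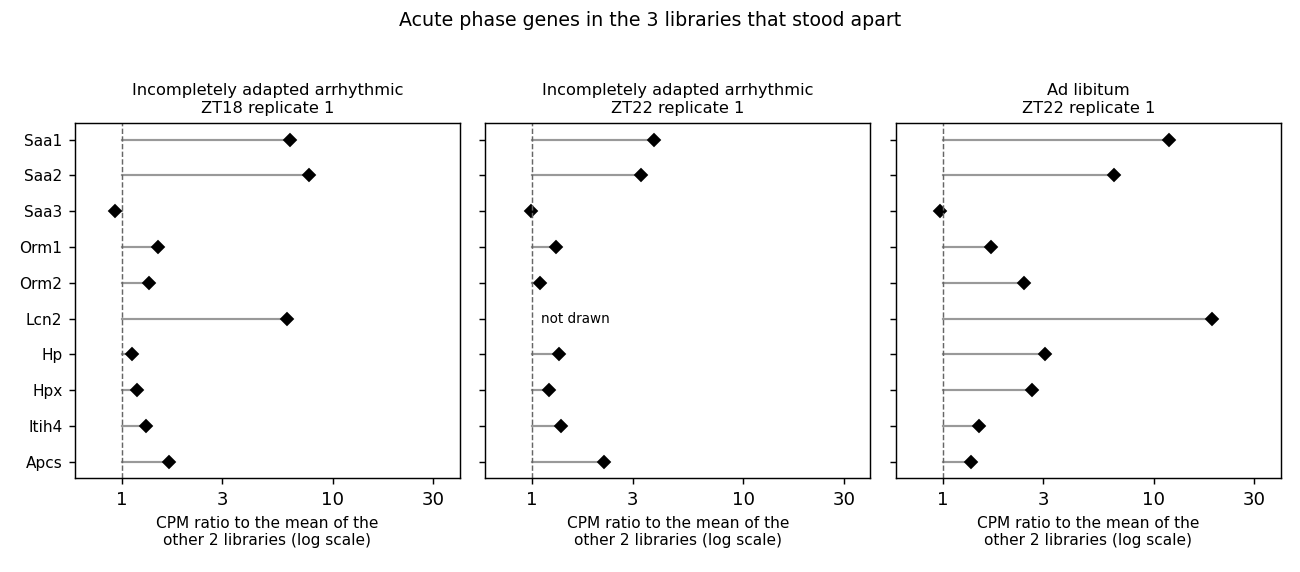
Ratio of each gene's CPM in a library that stood apart to the mean of the other 2 libraries of its paradigm and time (log axis; dashed line, ratio of 1). Saa1 and Saa2 lie right of 3 in each panel and Saa3 lies on or just below 1; no ratio is drawn for Lcn2 at incompletely adapted arrhythmic ZT22, where the other libraries had 3 and 0 counts.

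Genes of the inducing pathway were read in the same libraries. Of 23 genes for receptors and factors of the response, 10 were above both neighbours in the incompletely adapted arrhythmic ZT18 library, 11 in the ZT22 library of that paradigm and 15 in the ad libitum ZT22 library, and 6, 3 and 1 were below both. Of all genes, 34.7%, 26% and 34.3% were above both, and whether the list's shares differ from these was not tested. Stat3, which carries the interleukin 6 signal to the nucleus, had 103 CPM against 73.1 and 59.6 CPM in the first, 147 CPM against 105 and 52.9 CPM in the second, and 127 CPM against 67.5 and 59.5 CPM in the third. Socs3, its feedback inhibitor, had 3.31 CPM against 0.900 and 0.142 CPM in the incompletely adapted arrhythmic ZT22 library. Among 25 other positive acute phase genes tested, 2, 10 and 7 were the highest of 18 in the 3 libraries taken in the same order. Of all genes, 2.91%, 4.27% and 5.48% were. Above both neighbours were 10, 11 and 13 of the 25, and below both were 7, 0 and 4. Of 12 negative acute phase genes, whose products decrease in inflammation, 2, 2 and 4 were above both and 7, 1 and 5 below both. Shares of all genes below both are not given here for any of these lists. No difference in share was tested. Fgl1, a fibrinogen-like hepatokine, had 992 CPM against 264 and 117 CPM, 1996 CPM against 805 and 110 CPM, and 1546 CPM against 262 and 377 CPM. Over all 72 libraries Fgl1 also varied with base composition, with r = -0.787 against the GC slope described below. The part of composition in its levels was not tested. The 3 fibrinogen chain genes Fga, Fgb and Fgg each had their highest level of all 72 libraries in the incompletely adapted arrhythmic ZT22 library.

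Markers of immune cells moved with serum amyloid in 2 of the 3 libraries. The 10 Kupffer cell and macrophage markers summed to 1060 CPM in the incompletely adapted arrhythmic ZT18 library, against 1070 and 1800 CPM in its neighbours. They summed to 1790 CPM in that paradigm's ZT22 library, against 816 and 1470 CPM, and to 2160 CPM in the ad libitum ZT22 library, against 860 and 1140 CPM. Across libraries the sum ran from 404 to 1800 CPM in incompletely adapted arrhythmic, from 635 to 1310 CPM in arrhythmic, from 739 to 2460 CPM in night-restricted and from 484 to 2730 CPM in ad libitum libraries. The 10 neutrophil markers summed to 3.54, 15.3 and 99.7 CPM in the 3 libraries, and their ranges were 1.46 to 15.3 CPM in incompletely adapted arrhythmic, 1.07 to 7.68 CPM in arrhythmic, 1.06 to 9.02 CPM in night-restricted and 0.715 to 99.7 CPM in ad libitum libraries. In the ad libitum ZT22 library S100a8 with 62.3 CPM and S100a9 with 32.5 CPM made up most of that sum. The other neutrophil markers were low. The neutrophil-defining genes Ly6g and Mpo never passed 0.251 CPM and were at 0 in 69 and 67 of the 72 libraries. Elane, Csf3r, Cxcr2 and Ltf reached at most 0.325, 0.448, 0.539 and 0.626 CPM. Retnlg reached 1.04 CPM and Camp 2.81 CPM, and they were at 0 in 31 and 57 libraries. No marker of either list was at 0 in all libraries. The part of these cells in the serum amyloid levels was not tested, and in bulk liver more cells of a type and more RNA per cell cannot be told apart.

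**Figure D2:**
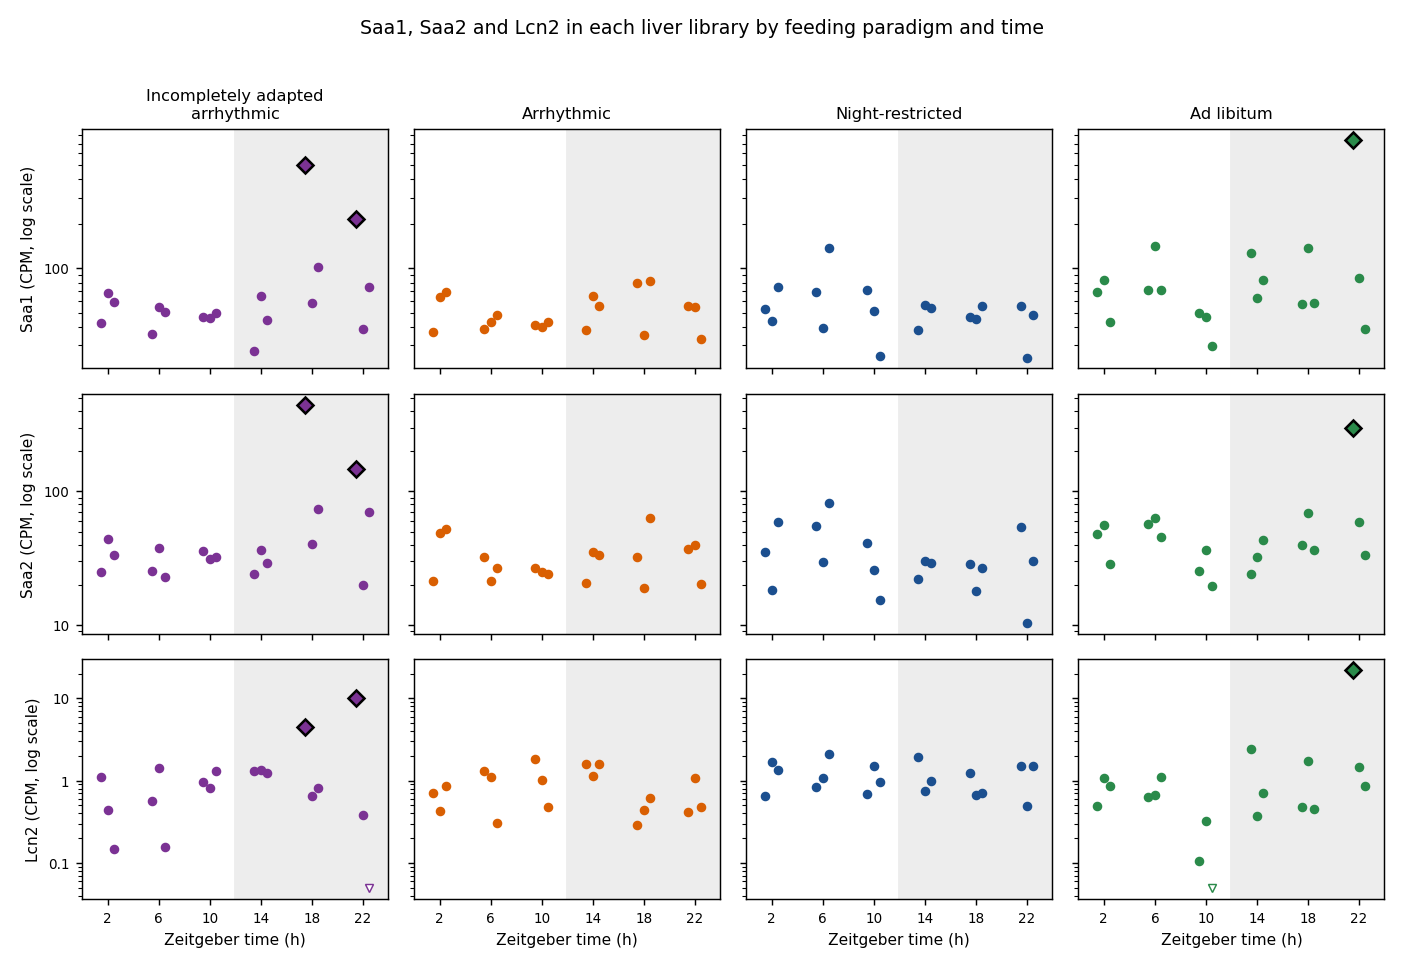
Saa1, Saa2 and Lcn2 in each of the 72 libraries against zeitgeber time (CPM, log axes; grey, dark phase). Diamonds are the libraries that stood apart, dots the other libraries and open triangles libraries with 0 counts of Lcn2; outside the diamonds Saa1 stays at or below 140 CPM.

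Mean levels over the day were compared between paradigms with edgeR's quasi-likelihood test and Benjamini-Hochberg adjustment over all genes tested. The question was whether the feeding paradigm sets how much of these transcripts a liver carries. Saa1 was the only one of the 10 to pass in any of the 4 comparisons. The median log2 difference of the 10 was -0.07 for incompletely adapted arrhythmic against arrhythmic feeding, -0.10 for arrhythmic against night-restricted, -0.17 for arrhythmic against ad libitum and 0.004 for night-restricted against ad libitum feeding, and that of all genes tested lay between -0.009 and 0.01. Under arrhythmic feeding it had a lowest, median and highest level of 33.1, 45.8 and 81.5 CPM, against 29.8, 70.4 and 741 CPM under ad libitum feeding. The ranges overlapped, and the mean of the 3 libraries was lower under arrhythmic feeding at 6 of 6 times. Saa1 averaged 51.2 ± 15.1 CPM under arrhythmic feeding and 111 ± 160 CPM under ad libitum feeding (SD, n = 18 each), a fitted difference of -0.96 ± 0.26 (SE) on the log2 scale, with a 95% interval of -1.49 to -0.43 and an adjusted p of 0.0394. The call depended on single libraries. Without the ad libitum ZT22 replicate 1 library it was -0.55, with an adjusted p of 0.242, and without all 3 libraries that stood apart it was -0.55, with an adjusted p of 0.108. It passed in 54 of 72 fits that each left out 1 library. The call was also lost without arrhythmic replicate 1 at ZT02, ZT06, ZT10, ZT14 or ZT22, replicate 2 at ZT06, ZT10, ZT18 or ZT22, or replicate 3 at ZT10, ZT14 or ZT22, and without ad libitum replicate 1 at ZT06 or ZT14 or replicate 2 at ZT06, ZT10 or ZT18. Over all single omissions the adjusted p lay between 0.0188 and 0.242. This was 1 of 10 genes, where 2.1% of all genes were called.

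The remaining comparisons of the mean gave no call among the 10. Saa2 averaged 32.2 ± 12.5 CPM under arrhythmic feeding and 56.5 ± 62.1 CPM under ad libitum feeding (SD, n = 18 each), with a log2 difference of -0.69 and an adjusted p of 0.175 by edgeR. Hp averaged 2486 ± 715 CPM under arrhythmic feeding and 3263 ± 1548 CPM under ad libitum feeding, with a log2 difference of -0.39 and an adjusted p of 0.21. Between arrhythmic and night-restricted feeding edgeR called 0 of 10, with 0 at an unadjusted p under 0.05 and 0 by DESeq2, while 6.92% of all genes were called. Saa1 averaged 51.2 ± 15.1 CPM under arrhythmic and 55.0 ± 24.6 CPM under night-restricted feeding, and its difference of -0.16 had a 95% interval of -0.69 to 0.37. The interval for Hpx was narrower, -0.30 to 0.16, about means of 1135 ± 297 CPM under arrhythmic and 1154 ± 409 CPM under night-restricted feeding. Between night-restricted and ad libitum feeding edgeR called 0 of 10, with 4 at an unadjusted p under 0.05 and 0 by DESeq2, while 1.62% of all genes were called. Saa1 there averaged 55.0 ± 24.6 CPM under night-restricted and 111 ± 160 CPM under ad libitum feeding, with a difference of -0.80 and an adjusted p of 0.0985. Both comparisons with ad libitum feeding share its 18 libraries, the ZT22 replicate 1 library among them. Between incompletely adapted arrhythmic and arrhythmic feeding edgeR called 0 of 10, with 2 at an unadjusted p under 0.05 and 0 by DESeq2, and 0% of all genes were called. Those 2 were Saa1, at 87.6 ± 111 CPM under incompletely adapted arrhythmic and 51.2 ± 15.1 CPM under arrhythmic feeding, and Saa2, at 65.0 ± 98.5 CPM under incompletely adapted arrhythmic and 32.2 ± 12.5 CPM under arrhythmic feeding. Without the libraries that stood apart Saa1 averaged 53.9 ± 17.6 CPM (n = 16) and Saa2 36.4 ± 15.5 CPM under incompletely adapted arrhythmic feeding.

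The orosomucoids, Itih4, Apcs and Saa3 gave no call of the mean. Orm1, a carrier of small molecules in plasma, averaged 841 ± 176, 864 ± 145, 790 ± 143 and 972 ± 304 CPM under incompletely adapted arrhythmic, arrhythmic, night-restricted and ad libitum feeding (SD, n = 18 each). Orm2 averaged 175 ± 66.4, 192 ± 49.3, 207 ± 64.3 and 216 ± 63.7 CPM in the same order. Itih4, an inter-alpha-trypsin inhibitor heavy chain, averaged 603 ± 135, 661 ± 91.8, 639 ± 200 and 566 ± 126 CPM. Apcs averaged 48.5 ± 13.9, 49.8 ± 10.9, 42.5 ± 13.3 and 42.5 ± 10.6 CPM. Saa3 averaged 13.1 ± 5.50, 12.9 ± 4.89, 11.1 ± 4.19 and 11.4 ± 4.15 CPM.

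**Figure D3:**
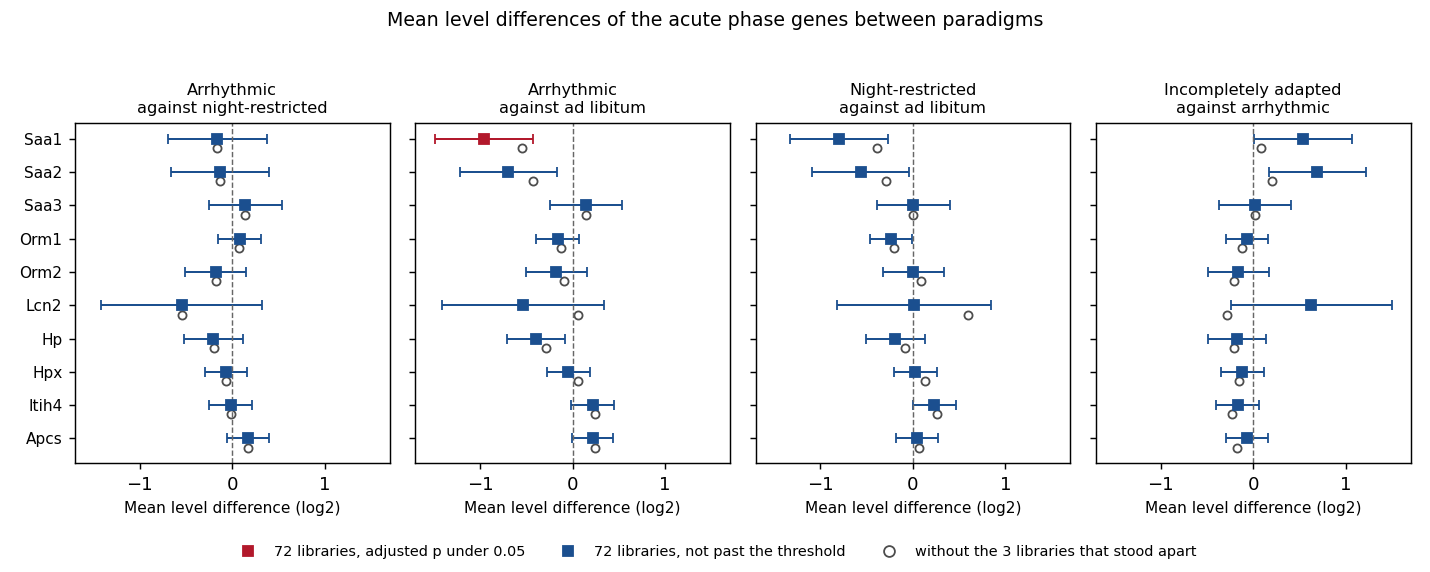
Fitted differences of the mean level over the day (log2; bars, 95% intervals) for the 10 genes in 4 comparisons, with the paradigm named first on top of the ratio. Red marks an adjusted p under 0.05, which only Saa1 reached, at -0.96 for arrhythmic against ad libitum feeding; open circles are the values without the 3 libraries that stood apart.

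The daily course was fitted as a 24 h cosine in each paradigm, and the range given is the fitted difference between peak and trough on the log2 scale. The median range of the 10 genes was 0.643 under incompletely adapted arrhythmic, 0.512 under arrhythmic, 0.686 under night-restricted and 0.549 under ad libitum feeding, and that of all genes tested was 0.423, 0.434, 0.706 and 0.521. Saa1 and Saa2 passed under incompletely adapted arrhythmic feeding, as did 3.63% of all genes. Saa1 there had a range of 2.14 ± 0.53 (SE) and a peak at ZT 19.4 ± 0.941 h (adjusted p = 0.0122, edgeR), and Saa2 a range of 2.53 ± 0.53 and a peak at ZT 19.1 ± 0.791 h (adjusted p = 0.0011, edgeR). Outside ZT18 and ZT22 the Saa1 libraries of this paradigm lay between 27.6 and 67.8 CPM, with time means of 56.4 ± 12.9, 47.1 ± 10.1, 47.2 ± 1.84 and 45.7 ± 18.6 CPM at ZT02, ZT06, ZT10 and ZT14 (SD, n = 3 each). The 2 libraries of this paradigm that stood apart were the highest at ZT18 and ZT22. Without ZT18 replicate 1 the Saa1 range was 1.28 (adjusted p = 0.297, edgeR) and the Saa2 range 1.45 (adjusted p = 0.144), and without all 3 libraries that stood apart the ranges were 0.71 (adjusted p = 0.625) and 0.95 (adjusted p = 0.455).

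Lcn2 passed under ad libitum feeding, where 7.48% of all genes did, with a range of 3.93 ± 0.85 and a peak at ZT 21.6 ± 0.764 h (adjusted p = 0.000476, edgeR). Its 3 libraries at ZT22 had 21.9, 1.46 and 0.865 CPM and those at ZT10 had 0.106, 0.320 and 0 CPM. Leaving out ad libitum ZT22 replicate 1 gave a range of 1.22 (adjusted p = 0.551, edgeR), and leaving out all 3 gave 1.22 (adjusted p = 0.396). Saa1 and Saa2 had ranges of 1.75 and 1.69 under ad libitum feeding, with adjusted p-values of 0.0524 and 0.077 by edgeR, and passed by DESeq2. The Saa1 call turned on single libraries there too: without incompletely adapted arrhythmic ZT18 replicate 1 its adjusted p was 0.0243 by edgeR, with the same range. Without the 3 libraries the Saa1 range there was 0.14 (adjusted p = 0.952, edgeR). Under arrhythmic feeding edgeR called 0 of 10 courses, with 1 at an unadjusted p under 0.05 (Hp) and 0 by DESeq2, while 3.37% of all genes were called. The Saa1 range there was 0.54 ± 0.53, and Saa1 time means lay between 41.5 ± 1.72 CPM at ZT10 and 65.3 ± 26.0 CPM at ZT18 (SD, n = 3 each). The SE of that range comes from the spread over all 72 libraries, the 3 that stood apart included. Without those 3 the range was 0.53 (adjusted p = 0.72, edgeR).

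**Figure D4:**
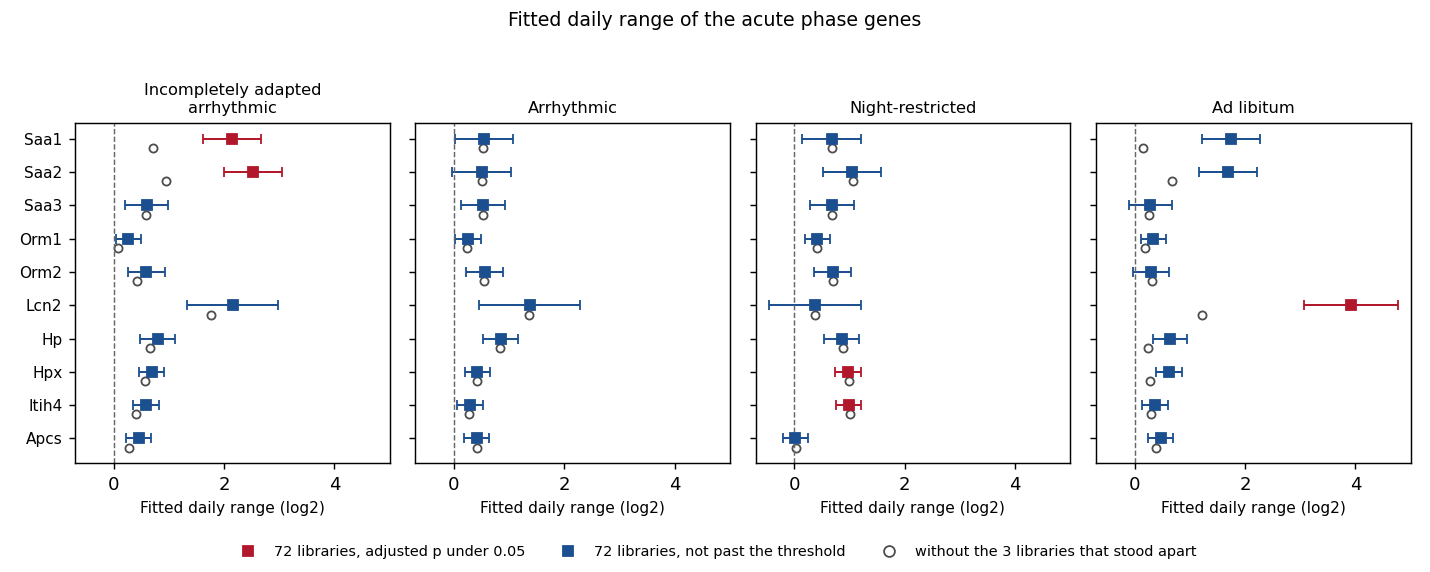
Fitted daily range of the 10 genes in each paradigm (log2, peak minus trough; bars, 1 SE). Red marks an adjusted p under 0.05 for the cosine and sine terms; open circles are the ranges without the 3 libraries that stood apart, where Saa1, Saa2 and Lcn2 move left in the paradigms that hold those libraries and Hpx and Itih4 stay in place under night-restricted feeding.

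Under night-restricted feeding Hpx and Itih4 followed the time of day, with the high point around the end of the night and the start of the day. Hpx averaged 1337 ± 191, 1108 ± 288, 830 ± 120, 932 ± 117, 1089 ± 151 and 1631 ± 786 CPM over the 6 times in order, beginning with ZT02 (SD, n = 3 each). The lowest library at ZT02, 1127 CPM, was above the highest at ZT10, 908 CPM, and the 3 libraries at ZT22 were spread between 1059 and 2527 CPM. Its range was 0.97 ± 0.23 with a peak at ZT 23.6 ± 0.908 h (adjusted p = 0.00355, edgeR). Itih4 averaged 833 ± 135, 748 ± 218, 552 ± 83.0, 462 ± 52.3, 534 ± 202 and 708 ± 262 CPM at the same times. Its libraries at ZT02 had 969, 828 and 700 CPM, all above those at ZT14, with 513, 408 and 465 CPM. The range was 0.98 ± 0.23 with a peak at ZT 1.99 ± 0.904 h (adjusted p = 0.00362, edgeR). With 2 of 10 genes, the share was below the 29.9% of all genes called under night-restricted feeding, and no difference in share was tested. Hp had a range of 0.86 ± 0.31 and a peak at ZT 0.940 (adjusted p = 0.0841, edgeR). Apcs had a fitted range of 0.02 ± 0.23 under night-restricted feeding.

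Both courses passed in all 72 fits that left out 1 library, and without the 3 libraries that stood apart they had ranges of 0.99 (adjusted p = 0.000988, edgeR) and 1.0 (adjusted p = 0.00265). They did not pass with time as 6 separate levels, where the adjusted p-values were 0.051 for Hpx and 0.0732 for Itih4, nor did Hpx without replicate 3 (0.0934) or Itih4 in a fit to the 18 night-restricted libraries alone (0.0792).

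The course differed between arrhythmic and night-restricted feeding for Hp and Itih4, in a test of both cosine and sine terms that 3.89% of all genes passed. Hp averaged 2124 ± 557, 2176 ± 635, 2488 ± 689, 3257 ± 1138, 2755 ± 438 and 2116 ± 358 CPM at ZT02 to ZT22 under arrhythmic feeding. It averaged 3198 ± 857, 3009 ± 1025, 2158 ± 456, 2166 ± 102, 2417 ± 889 and 3234 ± 1453 CPM under night-restricted feeding (SD, n = 3 each). The fitted ranges were alike, 0.85 and 0.86, while the peaks lay at ZT 14.1 under arrhythmic and ZT 0.940 under night-restricted feeding, and the size of the difference between the 2 courses was 1.69 ± 0.44 on the log2 scale (adjusted p = 0.0441, edgeR). Neither Hp course passed alone in either paradigm. Itih4 averaged between 642 ± 67.7 and 680 ± 91.9 CPM at the 6 times under arrhythmic feeding, with a fitted range of 0.29, against 0.98 under night-restricted feeding, and the difference had a size of 1.26 ± 0.33 (adjusted p = 0.0425, edgeR).

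The 2 differences moved with the base composition of the libraries. The slope of a library's log2 levels on the GC content of transcript ends was 0.319, 0.316, 0.237 and 0.369 per SD of GC in the replicate 1 libraries of night-restricted feeding (at ZT02, at ZT06, at ZT18 and at ZT22), and between -0.199 and 0.184 in the arrhythmic libraries. The ZT02 library among these had 4155 CPM of Hp, against 2934 and 2504 CPM in the other 2 of its time. The ZT22 library had 4912 CPM against 2396 and 2396 CPM. Single Hp levels at ZT06 and ZT18 are not given here. Deviations from the group mean correlated with the slope over 72 libraries with r = 0.722 for Hp and r = 0.807 for Itih4, points that share library and depth. With the slope as a covariate the sizes were 0.81 for Hp (adjusted p = 0.281, edgeR) and 0.61 for Itih4 (adjusted p = 0.222). Without 5 libraries of extreme slope they were 1.25 (adjusted p = 0.155, edgeR) and 0.97 (adjusted p = 0.108). The 5 were the night-restricted replicate 1 libraries listed above by slope and incompletely adapted arrhythmic ZT10 replicate 1 (-0.283). The set was fixed with the slopes known and is not the 5 steepest. Incompletely adapted arrhythmic ZT14 replicate 1 (-0.244) and ZT22 replicate 2 (-0.241) were kept. The part of composition in the difference was not tested further. With the covariate the courses of Hpx and Itih4 under night-restricted feeding kept adjusted p-values of 0.0036 and 0.0136, with ranges of 0.89 and 0.55.

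Single libraries also decided these calls, which held in 56 of 72 fits for Hp and 58 of 72 for Itih4, with adjusted p-values between 0.0204 and 0.121 for Hp and between 0.0132 and 0.117 for Itih4. The Hp call was lost without arrhythmic replicate 1 at ZT02, ZT06 or ZT22, replicate 2 at ZT06, ZT10 or ZT14 or replicate 3 at ZT22, and without night-restricted replicate 1 at ZT02, ZT06, ZT10 or ZT22, replicate 2 at ZT14 or ZT18 or replicate 3 at ZT10, ZT14 or ZT18. The Itih4 call was lost without arrhythmic replicate 1 at ZT02 or ZT06, replicate 2 at ZT10, ZT14 or ZT22 or replicate 3 at ZT22, and without night-restricted replicate 1 at ZT02, ZT06 or ZT22, replicate 2 at ZT14 or ZT18 or replicate 3 at ZT10, ZT14 or ZT18.

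**Figure D5:**
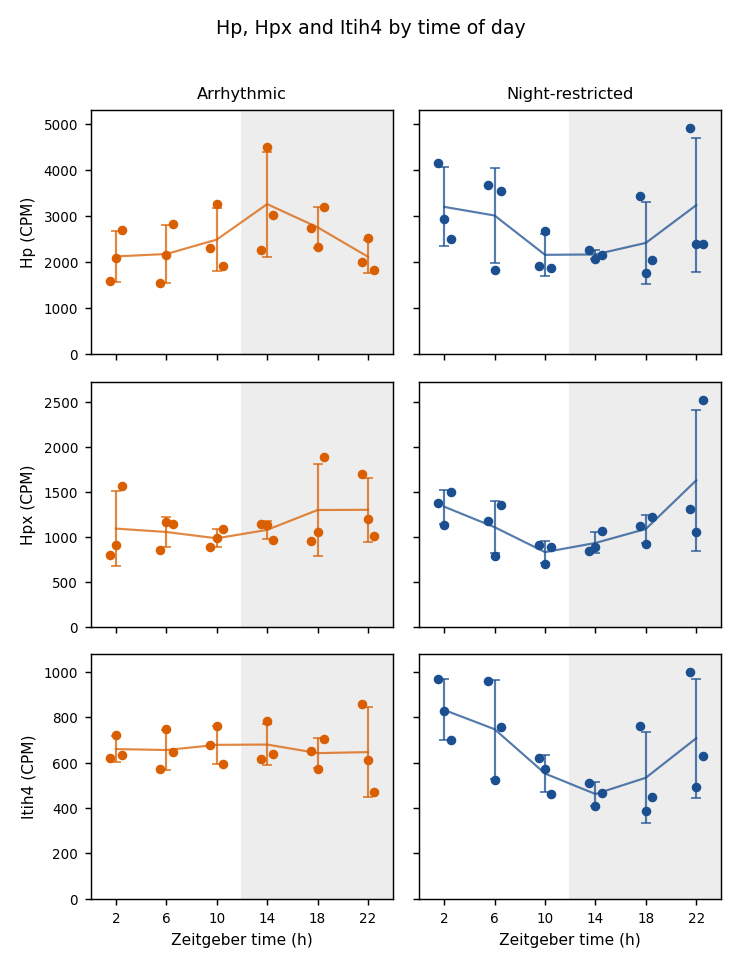
Hp, Hpx and Itih4 in each library against zeitgeber time under arrhythmic (left) and night-restricted (right) feeding (CPM; dots, libraries; lines and bars, mean and SD of 3; grey, dark phase). The mean of Itih4 stays between 642 and 680 CPM under arrhythmic feeding, and under night-restricted feeding lies between 462 CPM at ZT14 and 833 CPM at ZT02.

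The other comparisons of the daily course gave no call among the 10. For arrhythmic against ad libitum feeding edgeR called 0 of 10, with 2 at an unadjusted p under 0.05 (Lcn2 and Hp) and 1 by DESeq2 (Lcn2), while 0.0236% of all genes were called. For night-restricted against ad libitum feeding it called 0 of 10, with 2 at an unadjusted p under 0.05 (Saa1 and Lcn2) and 0 by DESeq2, and 0% of all genes. For incompletely adapted arrhythmic against arrhythmic feeding it called 0 of 10, with 3 at an unadjusted p under 0.05 (Saa2, Lcn2 and Hp) and 0 by DESeq2, and 0% of all genes. The serum amyloid courses that passed under incompletely adapted arrhythmic and not under arrhythmic feeding were therefore not shown to differ, with adjusted p-values of 0.942 for both Saa1 and Saa2.

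The spread between the 3 libraries of a paradigm and time set these genes apart from each other. The SD on the log2 scale was 0.949 for Lcn2, 0.799 for Saa2 and 0.779 for Saa1, at the 95.4, 90.6 and 89.7 percentile of all genes tested, whose median was 0.441. Without the 3 libraries that stood apart it was 0.598, 0.631 and 0.549. Orm1 with 0.340, Hpx with 0.353, Apcs with 0.360 and Itih4 with 0.365 lay below that median and close to the median of genes with at least 10 CPM, which was 0.361, and Orm1 under night-restricted feeding had an SD of 0.192. Pairs were compared by the correlation of their deviations from the mean of their paradigm and time over 72 libraries, which share depth and composition. Saa1 and Saa2 had r = 0.9, and 0.839 over the 69 libraries without those that stood apart. Saa1 and Lcn2 had 0.62 over 72 libraries and 0.206 over 69. Saa2 and Saa3 had 0.622 over 72 and 0.82 over 69, so Saa3 varied with Saa2 in the ordinary libraries but did not share the high values. Hp and Itih4 had 0.795.

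Among 6454 other genes averaging 10 CPM or more, those most like each member by this measure are named here as a description. Itih4 was most like C3, the central complement component (r = 0.907), and Itih1, another inhibitor heavy chain (0.891). Hp was most like Itih3 (0.869) and Lbp, the lipopolysaccharide-binding protein (0.856). Orm2 was most like Clu, the chaperone clusterin (0.862), and Qsox1, a sulfhydryl oxidase (0.857). Saa3 went with H2-Eb1 (0.79) and Cd74 (0.728), genes of antigen presentation. Hpx went with Hmox1, the haem-degrading enzyme (0.665), and Slc41a2 (0.662). Saa1 was most like Slc41a2 (0.598) and Tmem176a (0.576), and Saa2 like Tmem176a (0.609) and Ctss, the protease cathepsin S (0.592). Lcn2 was most like Stat3 (0.722, and 0.351 over 69 libraries) and Fgl1 (0.467, and 0.163 over 69). Orm1 was most like Gm11478 (0.743) and Lrrc3 (0.716), and Apcs like Gm3571 (0.723) and Sdc3 (0.697). Several of these genes also followed the GC slope, with r = 0.861 for C3, 0.919 for Itih1, 0.902 for Clu and -0.787 for Fgl1. So did Qsox1 (0.804), Cd74 (0.794), Itih3 (0.79), Tmem176a (0.714) and H2-Eb1 (0.671). Values were lower for Slc41a2 (0.366), Ctss (0.361) and Stat3 (-0.248). Of the members, Orm2 had 0.728, Saa3 0.584, Saa2 0.342 and Saa1 0.239. The part of composition in these pairings was not tested.

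Of the 23 genes of the inducing pathway tested, 2 passed under incompletely adapted arrhythmic, 3 under arrhythmic, 9 under night-restricted and 2 under ad libitum feeding, where 3.63%, 3.37%, 29.9% and 7.48% of all genes did; no difference in share was tested. Il6ra, the interleukin 6 receptor, passed in all 4 paradigms by edgeR, with ranges of 2.44 ± 0.32, 2.05 ± 0.32, 1.96 ± 0.32 and 2.34 ± 0.32 and peaks at ZT 14.55, 13.95, 13.17 and 14.38 in that order. Cebpd, a C/EBP factor of the response, passed under incompletely adapted arrhythmic feeding with a range of 1.60 (adjusted p = 0.00183, edgeR), under arrhythmic feeding with 1.26 (0.0351) and under night-restricted feeding with 1.42 (0.00156). Nfkbia, the inhibitor of NF-kB, passed under arrhythmic feeding with 0.63 (adjusted p = 0.0291, edgeR) and under night-restricted feeding with 1.07 (1.75e-06). The median range of the 23 genes was 0.993 under night-restricted feeding, where that of all genes was 0.706.

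Among 25 other positive acute phase genes tested, 1 passed for rhythm under incompletely adapted arrhythmic, 6 under night-restricted and 3 under ad libitum feeding by edgeR, where 3.63%, 29.9% and 7.48% of all genes did. Fga, the fibrinogen alpha chain, had ranges of 0.98 (adjusted p = 7.04e-05, edgeR) under incompletely adapted arrhythmic, 0.68 (0.00223) under night-restricted and 0.62 (0.0203) under ad libitum feeding. Its highest level was in the incompletely adapted arrhythmic ZT22 library that stood apart. Whether the Fga courses hold without the libraries that stood apart is not given here. Saa4, the constitutive serum amyloid, had ranges of 1.24 (adjusted p = 0.000537, edgeR) under night-restricted and 1.27 (0.000612) under ad libitum feeding, with peaks at ZT 12.3 and ZT 15.8. The arrhythmic and night-restricted courses differed for Serpina1a, an alpha-1-antitrypsin (1.65 ± 0.41, adjusted p = 0.031, edgeR), and Itih3 (1.48 ± 0.39, adjusted p = 0.044), whose peaks at ZT 14.1 under arrhythmic and ZT 0.327 and ZT 1.46 under night-restricted feeding lay near those of Hp. These were 2 of the 25, where 3.89% of all genes were called. Serpina1a has close paralogs, so its counts are uncertain, and Itih3 followed the GC slope with r = 0.79. In mean level 3 of the 25 genes rose under arrhythmic against night-restricted feeding, where 6.92% of all genes were called in either direction: Serpina3n by 0.35 (adjusted p = 0.0248, edgeR), Mbl2 by 0.52 (0.0324) and Hamp by 0.45 (0.0424). Hamp, which encodes the iron hormone hepcidin, and Serpina3n also rose against ad libitum feeding, by 0.66 (adjusted p = 0.00452, edgeR) and 0.41 (0.013), with the arrhythmic libraries shared between these comparisons. Against ad libitum feeding these were 2 of the 25, where 2.1% of all genes were called. Without the 5 libraries of extreme GC slope 94 genes in all differed in mean between arrhythmic and night-restricted feeding, against 880 with them.

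Of 12 negative acute phase genes, whose products decrease in inflammation, 1 passed for rhythm under arrhythmic and 5 under night-restricted feeding by edgeR, where 3.37% and 29.9% of all genes did, and no difference in share was tested. Serpina6, which encodes corticosteroid-binding globulin, fell by 0.51 in mean level under arrhythmic against night-restricted feeding (adjusted p = 0.0318, edgeR), and its course differed, with peaks at ZT 13.6 under arrhythmic and ZT 2.52 under night-restricted feeding (adjusted p = 0.0326). The course of Kng1, a kininogen, also differed (adjusted p = 0.0301). Between arrhythmic and night-restricted feeding 1 of the 12 was called in mean level and 2 in course, where 6.92% and 3.89% of all genes were. Among 11 partners and receptors of the acute phase proteins, Hmox1 fell by 0.54 (adjusted p = 0.0248, edgeR) and Cd163, the receptor for the haptoglobin and haemoglobin complex, fell by 0.47 (0.0424) under arrhythmic against night-restricted feeding. These were 2 of the 11, where 6.92% of all genes were called. Hmox1 followed the GC slope with r = 0.415. Whether the calls of Serpina6, Kng1, Hmox1 and Cd163 hold with the slope in the fit is not given here. The mean levels of Hp and Hpx gave no call between arrhythmic and night-restricted feeding. Itih2 rose by 0.73 under arrhythmic against ad libitum feeding (adjusted p = 0.0437, edgeR), as 1 of 11, where 2.1% of all genes were called.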

How the data were processed

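The authors deposited a table of whole-number counts per Ensembl gene for 72 QuantSeq 3′ mRNA liver libraries, made from 2 µg of total RNA extracted with TRIzol, per the labels' protocols. The submitters' processing notes name STAR 2.4.2a as a tool and GRCm38.p5 and mm10 as builds. For the counting step, neither tool nor annotation nor strand setting is given in the sources used here. Groups came from the labels. The 10 genes and all gene lists were chosen with earlier results of these data known. Genes named beyond the 10 were, for each list and comparison, at most 4 called genes of smallest p, and the 2 genes most like each member; genes of the lists and markers named for the 3 libraries that stood apart, and those libraries themselves, were chosen after their values were seen.

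Counts were fitted with edgeR 4.0.16 in R 4.3.3 (TMM normalization, filterByExpr over the 24 groups, robust quasi-likelihood), with a mean and a cosine and sine term of 24 h for each paradigm and all 72 libraries sharing 1 estimate of spread. P-values were Benjamini-Hochberg adjusted over 12712 genes at 0.05. The spread and correlations used log2 CPM with a prior count of 2. The GC slope of a library was fitted on the GC content of the last 500 bases of GENCODE M21 transcripts, known for 12696 tested genes, with the 10 genes left out. Alternatives were DESeq2 1.42.0, other size factors, no filter on low counts, time as a factor, the GC slope, a replicate block, libraries of each paradigm or pair alone, and fits that left out libraries; fits without 1 library kept the gene filter and trended dispersion of the full fit. The tests were tested on simulated data. Library totals between 4342026 and 12286021 counts limit genes such as Lcn2, with 5.5 to 6.5 counts in the median library.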

Additional observations from a re-analysis of the deposited data

Results flagged for a closer look

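Hp and Itih4 had daily courses that differed with the feeding paradigm, arrhythmic against night-restricted, by the test of the difference itself, Hp with an adjusted p of 0.0441 and Itih4 with an adjusted p of 0.0425 (edgeR). The sizes were 1.69 ± 0.44 and 1.26 ± 0.33 on the log2 scale. Hp peaked at ZT 14.1 under arrhythmic and ZT 0.940 under night-restricted feeding. The Itih4 range was 0.29 under arrhythmic and 0.98 under night-restricted feeding. Adding the GC slope to the fit gave sizes of 0.81 for Hp (adjusted p = 0.281, edgeR) and 0.61 for Itih4 (adjusted p = 0.222), and each call held in 4 of 14 other settings.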

How the results depend on the processing

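With other size factors the calls among the 10 genes were those of the main analysis. The replicate numbers were not taken to pair the libraries, since 36.6%, 48.9% and 53.6% of same-numbered pairs, not all, correlated above 0.1 (medians -0.045, 0.0811 and 0.13). As a hint from the data, 38 of 72 libraries correlated best with their own number. No correlations for differently numbered pairs are given here, and the count of best matches that unpaired libraries would give was not worked out. Whether libraries of the same number share a source of variation was not tested. A replicate block gave 0 calls of a mean difference between arrhythmic and ad libitum feeding, against 1 (Saa1, -0.90, adjusted p = 0.0506 by edgeR), and changed no other count of called members. Under night-restricted feeding the 2 rhythmic genes became 0 with time as a factor and 1 in that paradigm's own libraries. Under ad libitum feeding the 1 became 2 with time as a factor, 3 by DESeq2, 5 with the GC slope, 5 with the slope and the replicate block together, and 0 without the 3 libraries that stood apart, with or without the slope. Under incompletely adapted arrhythmic feeding the 2 became 1 in its own libraries and 0 without the 3, with or without the slope. The 2 course differences between arrhythmic and night-restricted feeding became 0 without the filter, with time as a factor and in the own libraries. They also became 0 without the 5 libraries of extreme slope. With the slope they became 0 as well, whether alone, together with the block or together with the omission of the 3. The block alone and the omission of the 3 alone left them at 2. The course difference between arrhythmic and ad libitum feeding went to 1 by DESeq2. The mean difference between them went to 0 without the filter, with time as a factor and without the 3, and to 3 (Saa1, Hp and Itih4) with the slope, with or without the block. Without the 3 and with the slope it stayed at 1, but the gene was Itih4 (adjusted p = 0.00203, edgeR) and Saa1 had an adjusted p of 0.053. That between night-restricted and ad libitum feeding went to 1 (Hp) with the slope, with or without the block. Leaving out 1 library or 1 replicate number gave 0 to 2 rhythmic genes in incompletely adapted arrhythmic, 0 in arrhythmic, 1 to 3 in night-restricted and 0 to 3 in ad libitum libraries, 0 to 2 course differences between arrhythmic and night-restricted feeding, and 0 to 1 mean differences in each comparison with ad libitum feeding. The remaining counts were 0 in every such fit. The called mean difference of Saa1 kept its sign in every fit. Mean differences that were not called did not always: between night-restricted and ad libitum feeding Itih4 had 0.23 in the main analysis, -0.02 without the 5 libraries of extreme slope and -0.12 without replicate 1, and Hp had -0.19 and, without replicate 2, 0.07. Between arrhythmic and ad libitum feeding Lcn2 had -0.53 and, without the 3, 0.06, and between arrhythmic and night-restricted feeding Hp had -0.20 and, with the slope, 0.04. All 40 mean levels moved by less than 1 SD with TMM effective library sizes. The omission of the 3 libraries, alone and with the slope, was chosen after seeing the data. Over all genes, these settings, replicate numbers left out included, gave 142 to 884 rhythmic genes in incompletely adapted arrhythmic (462 in the main analysis), 127 to 907 in arrhythmic (429), 1741 to 4379 in night-restricted (3801) and 313 to 1615 in ad libitum libraries (951). They gave 6 to 881 course differences between arrhythmic and night-restricted feeding (495), 0 to 45 between arrhythmic and ad libitum (3) and 0 to 52 between night-restricted and ad libitum feeding (0). Mean differences ran from 94 to 1651 (880), 15 to 900 (267) and 39 to 880 (206) in the same comparisons, and from 0 to 304 (0) between incompletely adapted arrhythmic and arrhythmic feeding. The cause of these changes was not tested. Low counts limit Lcn2.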
